A study of Basiliscus vittatus and Chrysopelea ornata and Dasypeltis gansi with 10 samples.

Results

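Calcium enters the cytosol of a neuron from the endoplasmic reticulum through 2 families of store release channels and leaves the cell through plasma membrane pumps, and 6 proteins of this machinery were followed here across squamate cerebella. They were ryanodine receptor 1 (RyR1), ryanodine receptor 2 (RyR2), inositol 1,4,5-trisphosphate receptor type 1 (IP3R1), inositol 1,4,5-trisphosphate receptor type 3 (IP3R3), plasma membrane calcium-transporting ATPase 1 (PMCA1) and plasma membrane calcium-transporting ATPase 3 (PMCA3). They were chosen by protein name and make up 6 of the 630 one-to-one orthologs in the deposited table.

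Inositol 1,4,5-trisphosphate (IP3) receptors open when phospholipase C, acting downstream of receptors such as the metabotropic glutamate receptor 1, releases IP3, whereas ryanodine receptors open when cytosolic calcium itself rises. In mammals, IP3R1 is very abundant in cerebellar Purkinje cells, the output neurons of the cerebellar cortex. Plasma membrane calcium pumps use ATP to move calcium out of the cell, PMCA1 in most cell types and PMCA3 mainly in neurons in mammals.

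The study asked how cerebellar organization and gene expression relate to the way squamates move, and sequenced RNA from the whole cerebellum of adult wild-type animals. The limbless group held 6 species, with Pseudopus apodus, a legless lizard, and 2 snakes, Chrysopelea ornata and Pantherophis guttatus, moving by lateral undulation, the snakes Dasypeltis gansi and Python regius using other movements, and the snake Eryx colubrinus being a facultative burrower that moves by slow lateral undulation. The quadrupedal group held the lizards Pogona vitticeps, Mochlus fernandi (L. fernandi in the table), Trioceros jacksonii, which is arboreal, and Basiliscus vittatus, a facultative biped. Limbless and quadrupedal thus split the species as snake and lizard do, except for P. apodus.

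Each species had 1 value per gene in FPKM, a count of sequenced fragments scaled by transcript length and by the mapped reads of the library, so that the spread among animals of a species is unknown, tests compared species, and p-values also contain shared ancestry. In whole tissue, fewer cells of a type and less RNA per cell cannot be told apart. The FPKM of the 630 orthologs summed to between 6289 in L. fernandi and 15880 in E. colubrinus. The study gives an average of filtered reads per species, but the depth of each library is unknown because FPKM keep no read numbers. L. fernandi had the lowest of the 10 values in 31.3% of all orthologs and P. apodus in 21.4%, and differences are therefore also given after each species was centred to the same median. No value in the table was 0, so that presence alone does not check the tissue. The summed FPKM of 3 Purkinje cell marker rows (IP3R1 among them) ranged from 33.81 to 223.96 in limbless species and from 60.28 to 120.96 in quadrupedal species, and that of 3 granule cell rows from 98.31 to 712.3 in limbless species and from 132.99 to 375.1 in quadrupedal species.

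Averaged over the 10 species, the pump PMCA3 and the channel IP3R1 were the most abundant of the 6 transcripts, at 63.2 ± 27.9 FPKM and 65.8 ± 43.8 FPKM (SD, n = 10). By mean log2(FPKM + 1), the scale of all ranks and tests below, PMCA3 was rank 14 and IP3R1 rank 29 of the 630 orthologs. PMCA3 exceeded IP3R1 in only 4 of 10 species, and IP3R1 was the highest of the 6 transcripts in 6 species, against 3 for PMCA3. RyR2 followed at 39.6 ± 23.2 FPKM (rank 55), PMCA1 at 26.4 ± 10.9 FPKM (rank 102), IP3R3 at 13.9 ± 10.1 FPKM (rank 354) and RyR1 at 7.94 ± 9.54 FPKM (rank 556). No neighbouring pair in this order differed by more than its spread over species, since the mean log2 FPKM ratio of each pair was smaller than its SD. The widest step was PMCA1 over IP3R3, with a mean log2 ratio of 1.33 ± 1.5 (SD, n = 10) and PMCA1 higher in 9 of 10 species.

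**Figure D1:**
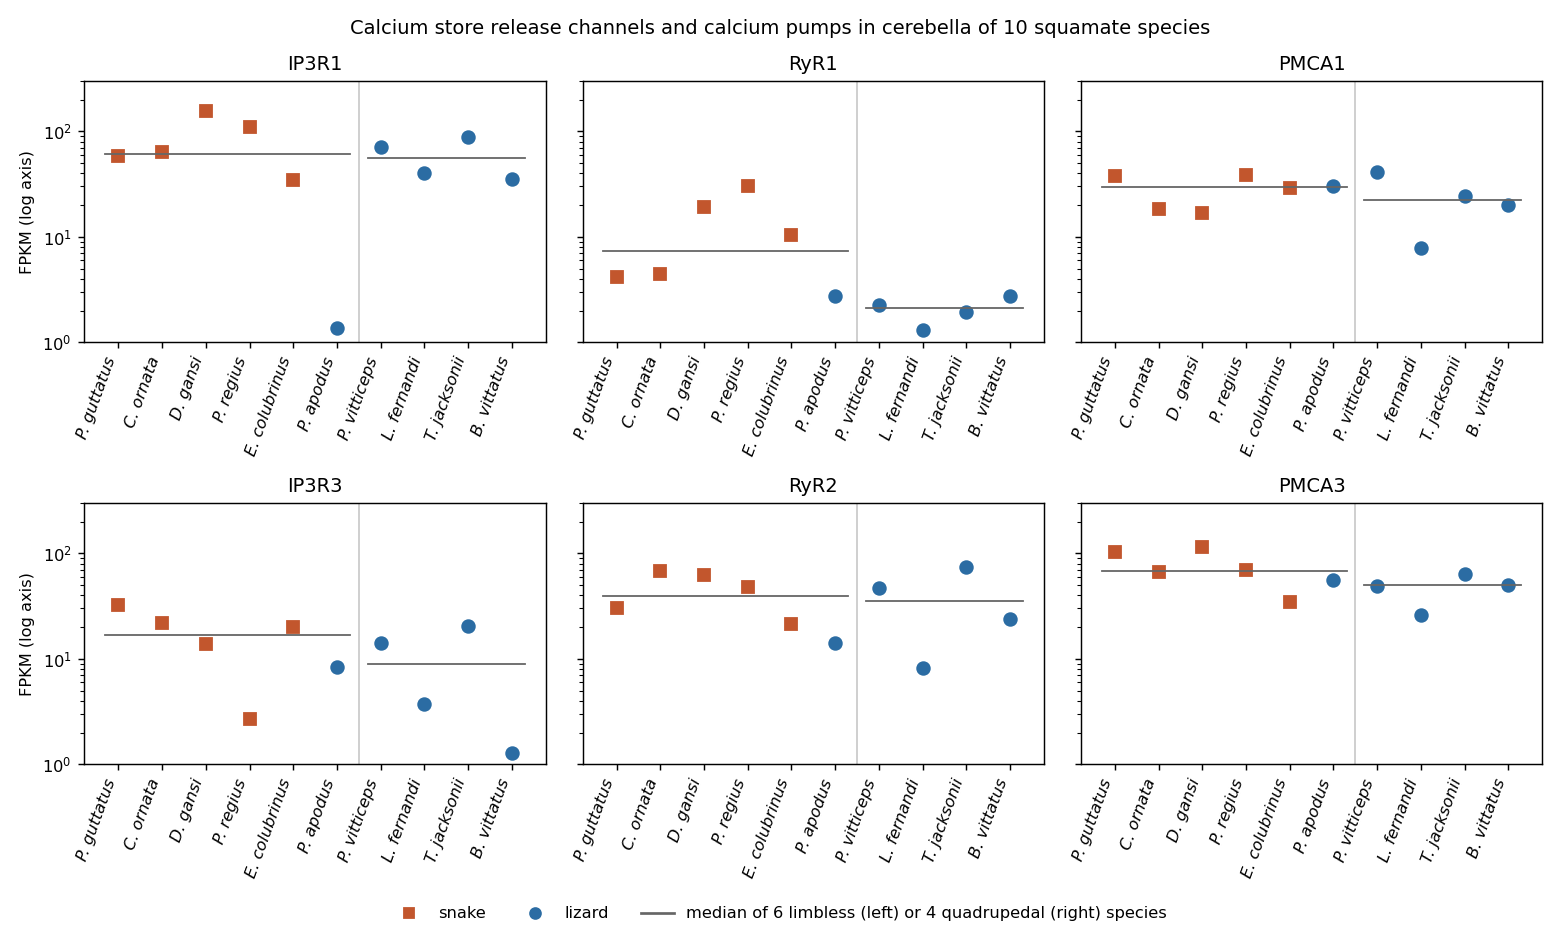
FPKM (logarithmic axis) of the 6 transcripts in each of 10 species, with 6 limbless species left and 4 quadrupedal species right of the grey line; squares are snakes, circles are lizards and horizontal bars are group medians. RyR1 lay between 4.2 and 30.14 FPKM in the 5 snakes and between 1.3 and 2.75 FPKM in the 5 lizards, and IP3R1 was at 1.38 FPKM in P. apodus. After each species was centred to the same median, the RyR1 values of snakes and lizards overlapped.

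IP3R1 exceeded IP3R3, the other IP3 receptor followed here, in almost every cerebellum. In the limbless species, IP3R1 reached 155.74 FPKM in D. gansi, 109.29 in P. regius, 63.29 in C. ornata, 58.5 in P. guttatus, 34.91 in E. colubrinus and 1.38 in P. apodus. In the quadrupedal species, it stood at 88.85 FPKM in T. jacksonii, 70.59 in P. vitticeps, 40.67 in L. fernandi and 35 in B. vittatus. In FPKM, D. gansi and P. regius were above every other species and P. apodus was far below all of them. The remaining limbless species fell within the quadrupedal range or just under its lower end. Relative to the species median, L. fernandi (2.74 log2 units) was above P. regius (2.59). On that scale E. colubrinus (0.79) lay well below the lowest quadrupedal species, B. vittatus (1.64).

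The low IP3R1 of P. apodus was the widest feature of the 6 transcripts. The next lowest species had 25.3-fold more, against a median of 1.39-fold between the lowest and next lowest species over all orthologs. A gap at least as wide was found in 3 of 630 orthologs, IP3R1 included. In the other 2, the lowest value was exactly 0.5 FPKM, the expression threshold of the authors. IP3R1 stood at percentile 6.35 of the orthologs of P. apodus, against percentiles from 79.7 to 99 in the other 9 species. Metabotropic glutamate receptor 1, the Purkinje cell receptor upstream of IP3 production, was at 18.82 FPKM in P. apodus and at 9.41 to 30.41 FPKM in the other species. Diacylglycerol lipase alpha, an endocannabinoid-making enzyme also abundant in Purkinje cells, was at 13.61 FPKM in P. apodus and at 9.78 to 40.87 FPKM in the other species. The summed FPKM of the Purkinje cell rows was lowest in P. apodus (33.81), but that sum holds IP3R1 itself. Its other rows, given above, were not lowest there. P. apodus also had the lowest sum of 3 astroglial rows (17.49) and of 2 oligodendrocyte lineage rows (6.49). Fibroblast growth factor receptor 3 (0.51) and myelin transcription factor 1 (1.83) were lowest in P. apodus. Electrogenic sodium bicarbonate cotransporter 1 (11.51), tenascin (5.47) and tenascin-R (4.66) were not. The granule cell sum was 119.12 in P. apodus, above the lowest of 98.31. These sums were not scaled to the species median. The parts of cell composition and of the assembled transcript length, on which FPKM depend, in the IP3R1 value of P. apodus were not tested.

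IP3R3, the IP3 receptor better known from epithelia and taste cells in mammals, was lower and followed another order. In the limbless species, it stood at 32.71 FPKM in P. guttatus, 21.62 in C. ornata, 20.05 in E. colubrinus, 13.91 in D. gansi, 8.41 in P. apodus and 2.7 in P. regius. In the quadrupedal species, it stood at 20.4 FPKM in T. jacksonii, 13.99 in P. vitticeps, 3.71 in L. fernandi and 1.27 in B. vittatus. Both groups held high and low species and overlapped throughout most of their ranges, and P. regius, high for IP3R1, was among the lowest for IP3R3.

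The FPKM ratio of IP3R1 to IP3R3 within a library, which does not move with the scale of the library, was above 1 in 9 of 10 species. It was 40.5 in P. regius, 11.2 in D. gansi, 2.93 in C. ornata, 1.79 in P. guttatus, 1.74 in E. colubrinus and 0.164 in P. apodus among the limbless species. Among the quadrupedal species it was 27.6 in B. vittatus, 10.96 in L. fernandi, 5.05 in P. vitticeps and 4.36 in T. jacksonii. P. apodus was the single species in which IP3R3 exceeded IP3R1, and the 2 groups overlapped.

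Of the ryanodine receptors, RyR2, the main isoform of heart and most of the mammalian brain, exceeded RyR1 in all 10 species. RyR2 stood at 67.75 FPKM in C. ornata, 62.05 in D. gansi, 48.16 in P. regius, 30.08 in P. guttatus, 21.39 in E. colubrinus and 14.23 in P. apodus among the limbless species. Among the quadrupedal species it stood at 73.42 FPKM in T. jacksonii, 46.58 in P. vitticeps, 23.96 in B. vittatus and 8.24 in L. fernandi. In FPKM, the quadrupedal lizards held both the highest and the lowest value, with all limbless species between them. Relative to the species median, the limbless C. ornata was highest (2.63 log2 units) and the limbless E. colubrinus lowest (0.10).

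RyR1, the skeletal muscle isoform that mammalian Purkinje cells also express, gave the clearest split of the 6 transcripts. It was at 30.14 FPKM in P. regius, 19.28 in D. gansi, 10.3 in E. colubrinus, 4.42 in C. ornata, 4.2 in P. guttatus and 2.74 in P. apodus among the limbless species. Among the quadrupedal species it was at 2.75 FPKM in B. vittatus, 2.28 in P. vitticeps, 1.94 in T. jacksonii and 1.3 in L. fernandi. All 5 snakes exceeded all 5 lizards, and the legless lizard P. apodus fell within the range of the quadrupedal lizards. Snakes lay above lizards without overlap for 1.9% of all orthologs, and their mean log2(FPKM + 1) was higher for 80.8%. After centring, the RyR1 values of snakes and lizards overlapped.

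RyR1 was a transcript of the lower part of the distribution in most cerebella, and D. gansi and P. regius were the species in which it exceeded the median ortholog, at percentiles 68.9 and 75.6. It lay at percentiles from 10.2 to 25.8 in the other limbless species and from 3.49 to 13.3 in the quadrupedal species. Since RyR1 is also the release channel of skeletal muscle, the muscle-expressed rows anoctamin-5 and dystrophin were set beside it. Their summed FPKM ranged from 7.27 to 52.25 in snakes and from 9.97 to 54.67 in lizards. Dystrophin was highest in P. regius (34.74), which was also highest in RyR1, but stood at 1.25 in D. gansi. Anoctamin-5 was highest in T. jacksonii (34.73), at 17.51 in P. regius and lowest in D. gansi (6.02). No value in the table was 0, so that the presence of these rows does not show muscle RNA. Their part in the RyR1 values was not tested.

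The RyR1 to RyR2 ratio within a library was 0.0652 to 0.626 in limbless species and 0.0264 to 0.158 in quadrupedal species, which overlapped. Within the limbless species it was 0.626 in P. regius, 0.482 in E. colubrinus, 0.311 in D. gansi, 0.193 in P. apodus, 0.14 in P. guttatus and 0.0652 in C. ornata. The ratio was thus lowest in T. jacksonii and highest in P. regius, and was below 1 throughout.

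**Figure D2:**
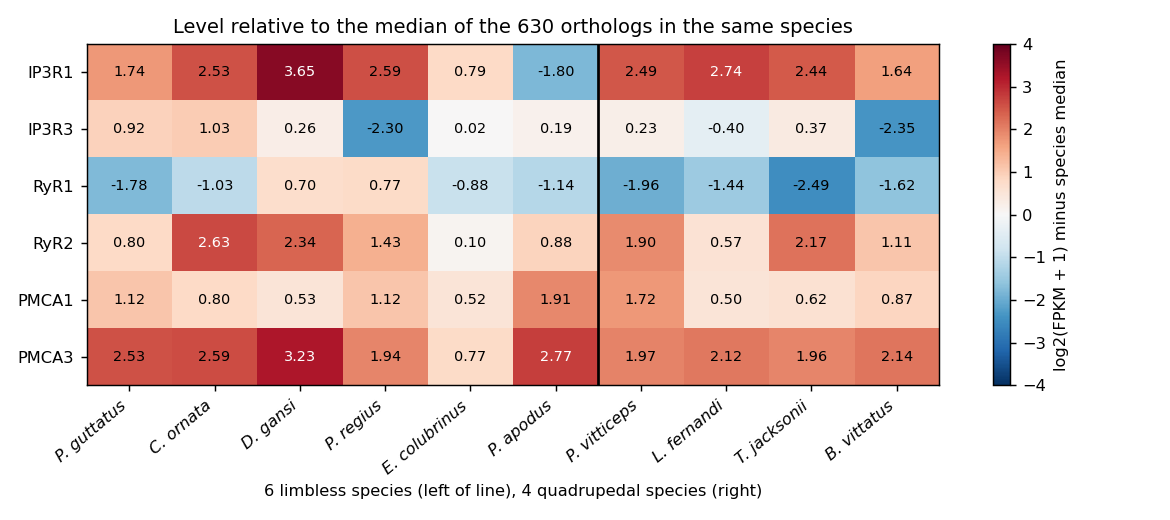
Heat map of log2(FPKM + 1) of each transcript (rows) minus the median of the 630 orthologs in the same species (columns, 6 limbless species left and 4 quadrupedal right of the line). RyR1 was above the species median in D. gansi (0.70) and P. regius (0.77), and IP3R1 was below it in P. apodus (-1.80).

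With all species included, the pumps were the steadiest of the 6 transcripts. PMCA3 was at 115.92 FPKM in D. gansi, 102.2 in P. guttatus, 69.19 in P. regius, 66.07 in C. ornata, 55.38 in P. apodus and 34.42 in E. colubrinus among the limbless species. Among the quadrupedal species it was at 63.33 FPKM in T. jacksonii, 50.11 in B. vittatus, 49.1 in P. vitticeps and 26.02 in L. fernandi. In FPKM, the highest 4 values were all from snakes, but E. colubrinus lay below every quadrupedal species other than L. fernandi. Relative to the species median, the lizard P. apodus (2.77 log2 units) was second to D. gansi (3.23). On that scale P. regius (1.94) and E. colubrinus (0.77) lay below all quadrupedal species (1.96 to 2.14).

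PMCA1, the housekeeping pump, was at 38.83 FPKM in P. regius, 37.87 in P. guttatus, 30.12 in P. apodus, 28.9 in E. colubrinus, 18.28 in C. ornata and 16.94 in D. gansi among the limbless species. Among the quadrupedal species it was at 41.11 FPKM in P. vitticeps, 24.41 in T. jacksonii, 20.1 in B. vittatus and 7.82 in L. fernandi. The limbless values in FPKM lay inside the quadrupedal range. Relative to the species median, P. apodus (1.91 log2 units) was above the highest quadrupedal species, P. vitticeps (1.72). PMCA3 exceeded PMCA1 in all 10 species, by 1.19-fold to 6.84-fold in limbless species and by 1.19-fold to 3.33-fold in quadrupedal species.

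Variation over species differed among the 6 transcripts. The highest species exceeded the lowest by 4.46-fold for PMCA3 and 5.26-fold for PMCA1, by 8.91-fold for RyR2, by 23.2-fold for RyR1, by 25.8-fold for IP3R3 and by 112.9-fold for IP3R1, beside a median of 10.3-fold over all 630 orthologs. By the SD of log2(FPKM + 1), PMCA3 stood at percentile 14.1 and PMCA1 at percentile 19.7 of all orthologs, whereas IP3R1 stood at percentile 96.7, RyR1 at 81.6 and IP3R3 at 83.5. The spread of IP3R1 rested on 1 library, since without P. apodus its highest species exceeded the lowest by 4.46-fold and its percentile was 26.7. Also without P. apodus, PMCA1 had a fold of 5.26 and percentile 25.1, and PMCA3 a fold of 4.46 and percentile 20.3. IP3R1 was then about as steady as the pumps. Without P. regius, RyR1 had a fold of 14.8 and percentile 57.8, and without L. fernandi its fold was 15.5. IP3R3 had a fold of 12.1 without B. vittatus, and without L. fernandi RyR2 had a fold of 5.16 and PMCA1 a fold of 2.43. With all species and after centring, the percentile of the SD was 29.0 for PMCA3 and 11.4 for PMCA1. It was then 50.5 for RyR2, 76.7 for RyR1, 85.2 for IP3R3 and 94.9 for IP3R1.

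The ratio of these 4 release channels to these 2 plasma membrane pumps followed from their levels. It is not the balance of all calcium channels and pumps of the cell. The Golgi calcium pump, for one, was not counted (7.95 FPKM in D. gansi to 52.53 in P. vitticeps). The summed FPKM of the 4 release channels divided by that of the 2 pumps was 1.89 in D. gansi, 1.86 in C. ornata, 1.76 in P. regius, 1.37 in E. colubrinus, 0.896 in P. guttatus and 0.313 in P. apodus among the limbless species. Among the quadrupedal species it was 2.10 in T. jacksonii, 1.59 in L. fernandi, 1.48 in P. vitticeps and 0.897 in B. vittatus. The groups overlapped and P. apodus was the lowest. The 6 transcripts together made up 0.944% (E. colubrinus) to 2.58% (D. gansi) of the summed FPKM of the 630 orthologs.

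**Figure D3:**
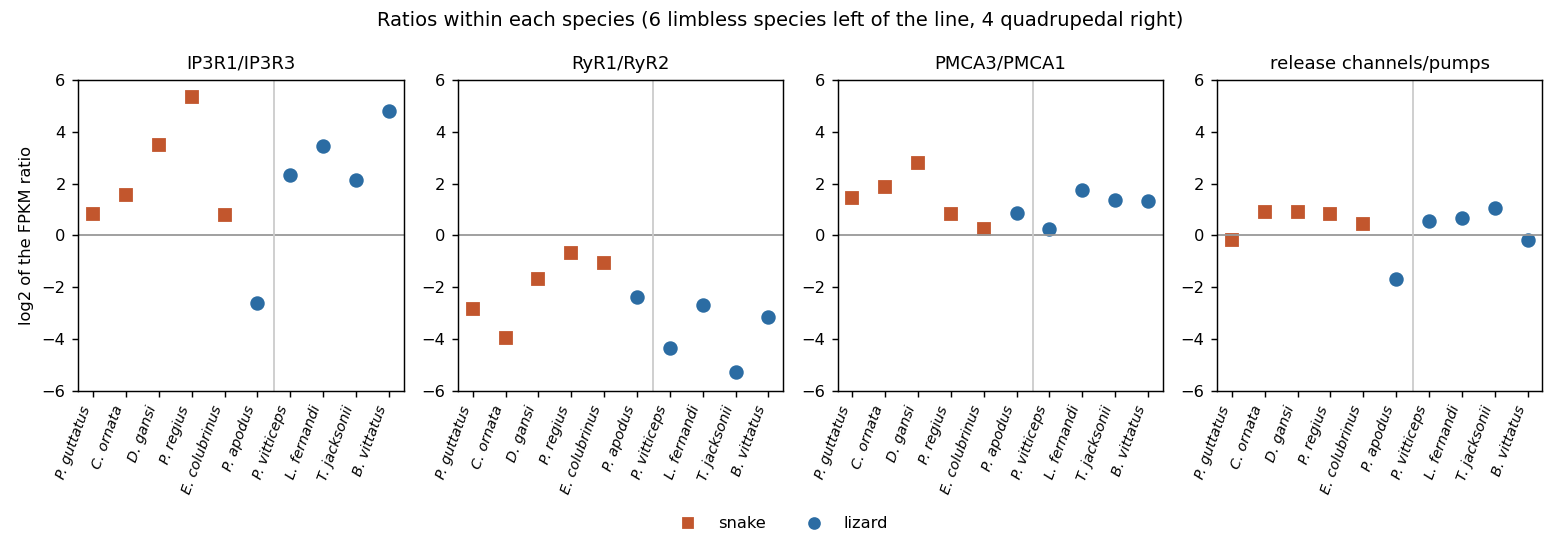
The log2 of the FPKM ratio of IP3R1 to IP3R3, RyR1 to RyR2, PMCA3 to PMCA1, and the summed release channels to the summed pumps, in 10 species (squares snakes, circles lizards, 6 limbless left and 4 quadrupedal right of the line). RyR1 was below RyR2 and PMCA3 above PMCA1 in all 10 species, and P. apodus was the one species with a log2 ratio of IP3R1 to IP3R3 below 0 (-2.61).

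The first comparison asked whether the transcripts differed with locomotor category. RyR1 averaged 11.8 ± 10.9 FPKM in limbless species (SD, n = 6) and 2.07 ± 0.61 FPKM in quadrupedal species (SD, n = 4). The log2 difference was 1.66 ± 0.61 (standard error; limma, adjusted p = 0.284 by Benjamini-Hochberg over 630 orthologs) and was 1.32 after centring. A two-sided exact permutation test over the 210 assignments of species gave an unadjusted p of 0.0381. RyR1 thus did not pass the threshold of an adjusted p of 0.05, and its groups overlapped through P. apodus and B. vittatus.

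For the other 5 transcripts, the difference between limbless and quadrupedal species was smaller than its standard error or not much larger. IP3R3 had a log2 difference of 0.90 ± 0.70 (limma, adjusted p = 0.754), which was 0.31 without B. vittatus and 1.39 without T. jacksonii. PMCA3 had a log2 difference of 0.60 ± 0.51 (limma, adjusted p = 0.764), PMCA1 of 0.41 ± 0.53 (limma, adjusted p = 0.806) and RyR2 of 0.27 ± 0.63 (limma, adjusted p = 0.876). After centring these were 0.55 for IP3R3, 0.26 for PMCA3, 0.07 for PMCA1 and -0.07 for RyR2, and without L. fernandi that of RyR2 was -0.30 and that of PMCA1 -0.0055. IP3R1 had a log2 difference of -0.40 ± 0.87 (limma, adjusted p = 0.868), which turned to 0.43 without P. apodus. IP3R1 averaged 70.5 ± 54.8 FPKM in the 6 limbless species, or 84.3 ± 48.2 FPKM in the 5 without P. apodus, and 58.8 ± 25.4 FPKM in the 4 quadrupedal species (SD).

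Of the 6 transcripts, 0 were called, as were 0% of all 630 orthologs by limma. At an unadjusted p under 0.05, limma gave 62 orthologs and the exact permutation test 55, of which the exact test left 0 after adjustment. RyR1 was the one of the 6 below an unadjusted p of 0.05 by limma, as were 8.25% of all orthologs in the positive direction. The difference was positive for 5 of 6 transcripts, beside 71% of all orthologs, and for 4 of 6 after centring, beside 51.3%. The median log2 difference was 0.51 over the 6 transcripts and 0.35 over all orthologs, and 0.17 and 0.01 after centring.

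The comparison of snakes with lizards moved P. apodus to the other side. RyR1 averaged 13.7 ± 11.1 FPKM in snakes and 2.20 ± 0.61 FPKM in lizards (SD, n = 5 each), a log2 difference of 1.87 ± 0.54 (limma, adjusted p = 0.163). The two-sided exact permutation test gave an unadjusted p of 0.00794, the smallest that 252 assignments allow. The groups did not overlap, as was the case, with snakes higher, for 1.9% of all orthologs. After centring the log2 difference was 1.29 and the groups overlapped.

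IP3R1 averaged 84.3 ± 48.2 FPKM in snakes and 47.3 ± 33.8 FPKM in lizards (SD, n = 5 each), a log2 difference of 1.34 ± 0.80 (limma, adjusted p = 0.454) that was 0.43 without P. apodus. For IP3R3 the log2 difference was 0.96 ± 0.68, for RyR2 0.72 ± 0.59, for PMCA3 0.60 ± 0.48 and for PMCA1 0.27 ± 0.51, the last being -0.07 without L. fernandi. After centring the differences were 0.76 for IP3R1, 0.38 for IP3R3, 0.14 for RyR2, 0.02 for PMCA3 and -0.31 for PMCA1. IP3R3 ranged from 0.50 without B. vittatus to 1.47 without P. regius. Of the 6 transcripts, 0 were called by limma, beside 0% of all orthologs, with 85 orthologs at an unadjusted p under 0.05 (80 by the exact permutation test, which also called 0). RyR1 was the one of the 6 among them, as were 13.3% of all orthologs in the positive direction. All 6 differences were positive, beside 80.8% of all orthologs, and 5 of 6 were positive after centring, beside 48.9%. The all-ortholog median log2 difference was 0.56 before and -0.02 after centring.

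Among limbless species, the 3 multi-habitat species moving by lateral undulation were set against the remaining 3, which were the 2 using other movements and the facultative burrower E. colubrinus, itself a slow lateral undulator. RyR1 was at 4.42 FPKM in C. ornata, 4.2 in P. guttatus and 2.74 in P. apodus, against 30.14 FPKM in P. regius, 19.28 in D. gansi and 10.3 in E. colubrinus. The groups did not overlap, before or after centring, which held with the multi-habitat lateral undulators lower for 17.5% of all orthologs before and 9.52% after centring. The log2 difference was -2.03 ± 0.61 (limma, adjusted p = 0.139) and -1.52 after centring. The limma fits of this comparison took their estimate of spread from all species, the quadrupedal ones included. The exact permutation test used the limbless species alone and gave 0.1, the smallest p that 20 assignments allow. With E. colubrinus counted under lateral undulation instead (4 against 2 species), an alternative chosen after seeing the data, RyR1 averaged 5.42 ± 3.34 FPKM under lateral undulation and 24.7 ± 7.68 FPKM in D. gansi and P. regius (SD), a log2 difference of -2.10 ± 0.68 (limma, adjusted p = 0.486).

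IP3R1 averaged 41.1 ± 34.4 FPKM in the multi-habitat lateral undulators and 99.98 ± 61.0 FPKM in the remaining limbless species, E. colubrinus included (SD, n = 3 each). Its log2 difference was -2.03 ± 0.99 (limma, adjusted p = 0.334) and shrank to -0.46 without P. apodus, so that its size rested on 1 species. With E. colubrinus counted under lateral undulation, the averages were 39.5 ± 28.3 FPKM in these 4 species and 132.5 ± 32.8 FPKM in D. gansi and P. regius (SD), a log2 difference of -2.46 ± 1.02 (limma, adjusted p = 0.674). IP3R3 had a log2 difference of 0.88 ± 0.87, which was 1.39 after centring, 0.12 without P. regius and 1.39 without P. apodus. PMCA3 had a log2 difference of 0.14 ± 0.64, PMCA1 of 0.04 ± 0.67 and RyR2 of -0.36 ± 0.79. After centring, PMCA3 was at 0.65 and PMCA1 at 0.55. With E. colubrinus counted under lateral undulation, IP3R3 was at 1.41, RyR2 at -0.93, PMCA1 at 0.11 and PMCA3 at -0.57. The sign of the RyR2 difference turned with centring (0.15) and without P. apodus (0.17). The sign of PMCA1 turned without P. guttatus (-0.18), D. gansi (-0.27) or P. apodus (-0.02), and that of PMCA3 without P. guttatus (-0.11) or E. colubrinus (-0.31). Of the 6 transcripts, 0 were called by limma, beside 0% of all orthologs, with 97 orthologs at an unadjusted p under 0.05 by limma and 0 by the exact permutation test, whose design cannot go below 0.1. RyR1 was the one of the 6 among these 97, as were 13.8% of all orthologs in the negative direction. The difference was positive for 3 of 6 transcripts, beside 29% of all orthologs, and for 4 of 6 after centring, beside 52.2%. These limbless groups also differed in scale, with an all-ortholog median log2 difference of -0.48.

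**Figure D4:**
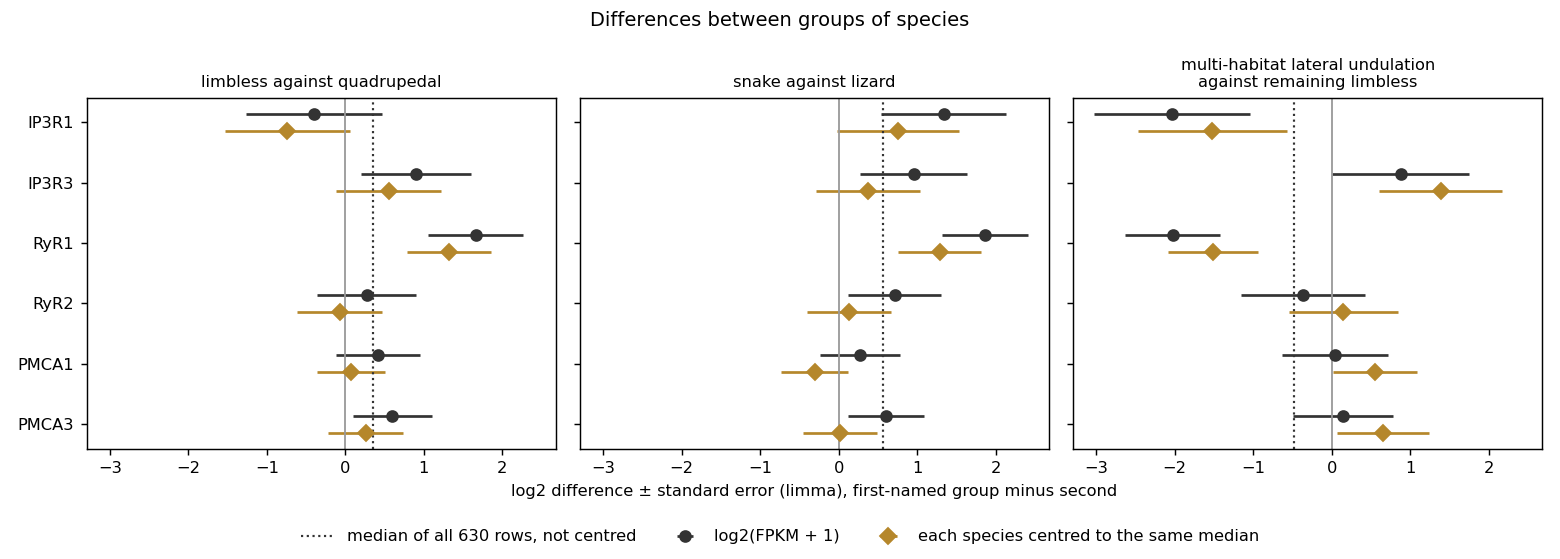
Log2 difference with its standard error (limma) for each transcript in 3 comparisons, first-named group minus second (the remaining limbless species of the last panel include the slow lateral undulator E. colubrinus), on log2(FPKM + 1) (black circles) and after each species was centred to the same median (ochre diamonds); the dotted line is the median difference of all 630 orthologs before centring. RyR1 was the transcript farthest above 0 for limbless against quadrupedal species (1.66) and snakes against lizards (1.87), and none of the 6 transcripts passed an adjusted p of 0.05.

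The study ranked the layout of Purkinje cells from pattern 1, an ordered monolayer, through pattern 2, an ordered multilayer, and pattern 3, a scattered multilayer, to pattern 4, totally scattered cells, and 8 of the 10 species had a pattern of their own. RyR1 was at 1.3 to 2.75 FPKM in pattern 1 (L. fernandi, P. vitticeps and B. vittatus), at 10.3 in pattern 2 (E. colubrinus), at 2.74 and 4.42 in pattern 3 (P. apodus and C. ornata) and at 19.28 and 30.14 in pattern 4 (D. gansi and P. regius). The values were not ordered throughout, since pattern 2 exceeded pattern 3. All 3 species of pattern 1 were quadrupedal and the 5 of patterns 2 to 4 limbless. The step to pattern 1 and the locomotor category thus cannot be told apart. Among these limbless species, pattern 2 was the facultative burrower, pattern 3 multi-habitat lateral undulation and pattern 4 other movements. Patterns 2 to 4 and the locomotor mode therefore cannot be told apart either.

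The slope of RyR1 was 0.83 ± 0.27 log2 units per step of the pattern order (limma, adjusted p = 0.403) and 0.70 after centring. RyR2 had a slope of 0.42 ± 0.28, PMCA3 of 0.38 ± 0.23, IP3R3 of 0.21 ± 0.32, IP3R1 of 0.21 ± 0.40 and PMCA1 of 0.13 ± 0.26. The last 3 changed sign without single species, IP3R3 without B. vittatus (-0.06), IP3R1 without D. gansi (-0.11) or P. regius (-0.0084), and PMCA1 without L. fernandi (-0.07). With the category as a term, an alternative chosen after seeing the data whose slope rests on the 5 limbless species, the slope was 0.85 ± 0.57 for RyR1, 1.29 ± 0.81 for IP3R1, 0.68 ± 0.58 for RyR2, 0.66 ± 0.48 for PMCA3, -0.78 ± 0.61 for IP3R3 and -0.05 ± 0.54 for PMCA1 (limma, adjusted p = 0.999 for each). Of the 6 slopes without that term, 0 passed the threshold, beside 0% of all orthologs, with 40 orthologs at an unadjusted p under 0.05 by limma (no second tool was run for this slope). RyR1 was the one of the 6 among these, as were 5.4% of all orthologs with a positive slope. The slope was positive for 6 of 6 transcripts, beside 71% of all orthologs, and for 5 of 6 after centring, beside 51.4%.

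The steps before and beside store release were read from 3 lists of other calcium rows. IP3 production was represented by 6 rows, the metabotropic glutamate receptors 1 and 5 and 4 phospholipase C rows. Of these, 0 were called in limbless against quadrupedal species, beside 0% of all orthologs. The difference was positive for 4, beside 71% of all orthologs, and for 4 after centring, beside 51.3%. The negative ones were both phospholipase C beta-1 rows, which averaged 25.6 ± 14.9 and 7.14 ± 8.24 FPKM in limbless species and 38.3 ± 21.98 and 11.8 ± 13.7 FPKM in quadrupedal species. The smallest p belonged to phospholipase C gamma-1, which averaged 14.7 ± 4.93 FPKM in limbless species (SD, n = 6) and 6.26 ± 4.88 FPKM in quadrupedal species (SD, n = 4), a log2 difference of 1.33 ± 0.56 (limma, adjusted p = 0.386). Metabotropic glutamate receptor 1 averaged 24.0 ± 4.18 FPKM in limbless species and 13.99 ± 6.43 FPKM in quadrupedal species, a log2 difference of 0.81 ± 0.47 (limma, adjusted p = 0.621).

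Calcium entry was represented by 7 rows, the L-type, N-type, R-type and T-type channel subunits and 3 transient receptor potential channels. Of these, 0 were called, beside 0% of all orthologs. The difference was positive for 5, beside 71% of all orthologs, and for 4 after centring, beside 51.3%. Transient receptor potential channel M3 had the smallest p, with 22.8 ± 6.96 FPKM in limbless species and 9.17 ± 8.67 FPKM in quadrupedal species and a log2 difference of 1.49 ± 0.53 (limma, adjusted p = 0.284). The last list held 8 rows, among them the Golgi calcium pump, the calcium-activated potassium channel and calcium sensors. Of these 8 rows, 0 were called, beside 0% of all orthologs. The difference was positive for 5, beside 71% of all orthologs, and for 2 after centring, beside 51.3%. Calmodulin-binding transcription activator 1, a transcription factor that binds the calcium sensor calmodulin, had the smallest p of that list, with a log2 difference of 0.94 ± 0.65 (limma, adjusted p = 0.717).

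After centring, the 6 transcripts did not vary as a block over the species. Pearson's r between pairs of them over the 10 species then ranged from -0.57 (IP3R1 with PMCA1) to 0.53 (RyR2 with IP3R1). These values share libraries and are given as a description. Spearman's rho of IP3R1 with PMCA1 was -0.42. Relative to its species median, P. apodus was lowest in IP3R1 (-1.80) and highest in PMCA1 (1.91). Before centring, r ranged from -0.06 (IP3R1 with PMCA1) to 0.67 (RyR2 with PMCA3). By Pearson's r after centring, the rows most like RyR1 were ATP-binding cassette sub-family A member 3, a lipid transporter (r = 0.89), a probable cationic amino acid transporter (r = 0.88) and the RNA helicase DDX54 (r = 0.87). These rows were picked for their r, so that a shared highest or lowest species follows from the choice here and below.

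The rows most like IP3R1 were the 116 kDa subunit a of the V-type proton ATPase, which acidifies vesicles (r = 0.88), eukaryotic translation initiation factor 4B (r = 0.87) and the surface antigen CD47 (r = 0.87). Each was lowest in P. apodus, as IP3R1 was. Their Spearman's rho with IP3R1 was 0.62, 0.72 and 0.88 in that order. IP3R3 was closest to semaphorin-4G, an axon guidance family member (r = 0.86), hepatocyte growth factor-regulated tyrosine kinase substrate, an endosomal sorting protein (r = 0.84), and carnosine synthase 1 (r = 0.81).

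RyR2 was closest to ubiquitin carboxyl-terminal hydrolase 37 (r = 0.84), eukaryotic translation initiation factor 4 gamma 3 (r = 0.83) and pre-mRNA-processing factor 40 homolog A (r = 0.76). PMCA3 was closest to protocadherin-7, a cell adhesion protein (r = 0.90), BLOC-1-related complex subunit 6 (r = 0.85) and inactive ubiquitin carboxyl-terminal hydrolase 54 (r = 0.84). PMCA1 was closest to exportin-T, a tRNA exporter (r = 0.82), exocyst complex component 1 (r = 0.75) and fermitin family homolog 2 (r = 0.73). The median r over all rows was between -0.02 and 0.10 for the 6 transcripts.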

How the data were processed

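By the study's methods, RNA of adult cerebella was made into ribosome-depleted stranded libraries, reads were trimmed, ribosomal reads removed, transcripts assembled de novo, one-to-one orthologs inferred and abundance estimated. Trimmomatic and RSEM are the tools named in the submitters' processing notes. The authors deposited FPKM, which are scaled to transcript length and to mapped reads, and kept orthologs above 0.5 FPKM in at least 1 sample. FPKM depend on the assembled length and on the other transcripts of a library. The sources used here do not say how sequencing duplicates were combined.

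Species were taken from the labels, and locomotor and Purkinje cell groups from the study. In R 4.3.3, limma 3.58.1 was fitted to log2(FPKM + 1) of all 630 rows, two-sided, with Benjamini-Hochberg adjustment over 630 rows at 0.05 and no filter; folds on this scale understate changes of low genes. Exact permutation tests were run beside it. Alternatives were centring, quantile normalization, pseudocounts of 0.1 and 0.5, a mean FPKM of at least 5, leaving out 22 rows with doubtful names, and leaving out each species. The fits were tested on simulated data. Figures were drawn with matplotlib 3.10.9 in Python 3.11.15.

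The 6 members, the calcium and marker lists and the tests were chosen with earlier results of these data known. Named beside the members are the 3 rows of highest Pearson r with each, the row of smallest p in each list for limbless against quadrupedal species, metabotropic glutamate receptor 1, and the muscle rows; diacylglycerol lipase alpha was named after its values were seen. No sequence or coordinate is given.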

Additional observations from a re-analysis of the deposited data

Results flagged for a closer look

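Within the groups of 4 to 6 species, the highest and the lowest value of each of the 6 transcripts on log2(FPKM + 1) were compared with their nearest neighbour by Dixon's ratio at its 95% critical value. Of 24 groups, 3 stood out, and chance alone flags about 1 group in 20. IP3R1 in P. apodus (1.38 FPKM) was the lowest of the 6 limbless species, the next being at 34.91 FPKM, with a ratio of 0.648, above the critical value for 6 values. The same value was the lowest of the 5 lizards, the next being at 35 FPKM, with a ratio of 0.748, above the critical value for 5 values. PMCA3 in L. fernandi (26.02 FPKM) was the lowest of the 5 lizards, the next being at 49.1 FPKM, with a ratio of 0.712, just above it. L. fernandi also had the lowest sum of the 630 orthologs, and after centring its PMCA3 was 2.12 log2 units above its species median, inside the range of the other lizards (1.96 to 2.77).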

How the results depend on the processing

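None of the 6 transcripts was called under any alternative. Over all orthologs, limma called up to 4 for limbless against quadrupedal species and up to 2 for snakes against lizards (both without D. gansi), 1 for multi-habitat lateral undulation against the remaining limbless species (without P. guttatus) and 0 for the Purkinje cell pattern. Of 402 alternative values, 378 kept direction and side of the threshold and 24 changed sign. RyR1 kept its sign in all. Of the single species left out, P. regius reduced the RyR1 difference most, to 1.32 for limbless against quadrupedal species and 1.51 for snakes against lizards. The same held for lateral undulation (-1.68) and for the slope of the pattern order (0.65). Part of the 402 could not change direction. The filter on mean FPKM, the filter on doubtful names and the exact permutation test leave each difference as it was. Leaving out a quadrupedal species also leaves the difference for lateral undulation as it was. The 378 are therefore not all separate checks of direction. For limbless against quadrupedal species, RyR2 was -0.072 after centring and -0.17 after quantile normalization. For snakes against lizards, PMCA1 was -0.31 and -0.17. For lateral undulation, RyR2 was 0.15 and 0.16, and PMCA3 was -0.57 with E. colubrinus counted under lateral undulation. For the pattern order, PMCA1 was -0.0059 after centring, and with category as a term PMCA1 was -0.051 and IP3R3 -0.78. The cause was not tested.

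Leaving out 1 species at a time, the differences for limbless against quadrupedal species ranged from -0.30 to 0.70 for RyR2, from -0.78 to 0.43 for IP3R1 and from -0.0055 to 0.75 for PMCA1. For snakes against lizards, PMCA1 ranged from -0.069 to 0.49. For lateral undulation, RyR2 ranged from -0.92 to 0.17, PMCA1 from -0.27 to 0.33 and PMCA3 from -0.31 to 0.55. For the pattern order, IP3R1 ranged from -0.11 to 0.48, IP3R3 from -0.060 to 0.55 and PMCA1 from -0.071 to 0.29. No paired analysis was possible because each species is a group of its own. The depth of each library is unknown, so counting error could not be set beside these spreads.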
